A study of Mus musculus with 12 samples.

Results

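Sialyltransferases are the Golgi enzymes that cap the glycans of proteins and lipids with sialic acid. The set described here holds 8 of the 41388 genes in the deposited tables: St6gal1, St3gal1, St3gal2, St3gal3, St3gal4, St3gal5, St3gal6 and St8sia4, matched by gene symbol. The members were selected on measured values of these libraries: the set was chosen because St6gal1 was far lower after stimulation and St3gal5 higher in the stimulated libraries labelled knockout. The levels and differences with stimulation and between stimulated genotypes are therefore given as a description without a test, and a test is given for the genotypes in vehicle, which the choice did not use. All 8 genes passed the filter on low counts.

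The cells were mouse peritoneal macrophages, recruited by an injection of thioglycolate, isolated on day 4 and plated. A day later they were stimulated for 8 h. They came from LysM-Cre mice (controls, which carry the myeloid Cre driver alone) or from LysM-PPARg mice, labelled as knockouts of the nuclear receptor PPARγ in cells that express LysM. Each genotype received vehicle (BSA in PBS) or 250 uM palmitate with 100 ng/ml LPS, which gave 4 groups of 3 libraries. Palmitate and LPS were only given together, so their shares in a response cannot be told apart.

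The 12 libraries held 17960457 to 22696385 counts. The macrophage genes Adgre1, Cd68 and Csf1r were at 309 ± 8.11, 4954 ± 410.1 and 620 ± 6.39 CPM in control vehicle libraries (CPM, the count relative to the library total scaled by TMM, mean ± SD, n = 3 as throughout). Of the 8 macrophage markers listed, Lyz2 and Fcgr1 were the lowest there, at 21.2 ± 2.12 and 32.1 ± 2.0 CPM. Lyz2 is the LysM gene, for which the Cre driver of both genotypes is named. The part of the driver in the Lyz2 counts was not tested. Between stimulated genotypes Lyz2 differed by -0.43 ± 0.10, labelled knockout minus control (edgeR adjusted p = 0.00943). In vehicle the difference was 0.33 ± 0.11 (edgeR adjusted p = 0.126). Pparg, the targeted gene, went against its label: it stood at 111, 91 and 95.9 CPM in the vehicle libraries labelled knockout, against 62.3, 61.6 and 61 in controls. After stimulation Pparg was low in both genotypes, which overlapped. It stood at 3.59, 5.04 and 4.73 CPM in libraries labelled knockout and at 3.63, 2.86 and 4.145 in controls. These counts cover the whole gene, so they do not check the deleted part, and the groups are called libraries labelled knockout. Whether the labels were exchanged was not tested; an exchange would turn the sign of every genotype difference given here. Vehicle replicate 1 labelled knockout stood apart from its group, at 31.8 on the second principal component against -6.9 and -10.

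Each sialyltransferase uses the same donor, CMP-sialic acid, and is named for the bond it makes. ST6GAL1 adds sialic acid to the galactose ends of N-glycans in the linkage that CD22 and some other Siglec receptors read. The ST3GAL enzymes make the alternative linkage to galactose, ST3GAL3, ST3GAL4 and ST3GAL6 mainly on N-glycans and selectin ligands, ST3GAL1 and ST3GAL2 on O-glycans and, for ST3GAL2, gangliosides. ST3GAL5 makes the ganglioside GM3 from lactosylceramide, and ST8SIA4 extends sialic acid into polysialic acid chains. In macrophages these caps set which Siglecs and other lectins can bind, and removing or adding them is known to tune responses through Toll-like receptors.

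St6gal1 and St3gal5, the genes the set was built around, differ in the DNA ahead of their starts. The RefSeq table of promoters (GRCm38.p6) held 9 start sites for 6 of the 8 genes, and 3 of the 9 belong to St6gal1. Each of these 3 coincides with the first base of an exon block in the deposited table, so the counted exons of St6gal1 include all 3 starts. The 250 bases before each St6gal1 start and before the St3gal5 start are shown, with CG pairs in capitals.
St6gal1 start 1, chr16:23224490-23224739, plus strand: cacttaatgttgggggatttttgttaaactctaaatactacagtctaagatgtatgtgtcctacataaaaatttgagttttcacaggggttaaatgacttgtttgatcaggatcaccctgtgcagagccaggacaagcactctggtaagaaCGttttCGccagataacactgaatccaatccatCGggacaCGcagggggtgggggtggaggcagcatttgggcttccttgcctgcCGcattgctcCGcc
St6gal1 start 2, chr16:23225771-23226020, plus strand: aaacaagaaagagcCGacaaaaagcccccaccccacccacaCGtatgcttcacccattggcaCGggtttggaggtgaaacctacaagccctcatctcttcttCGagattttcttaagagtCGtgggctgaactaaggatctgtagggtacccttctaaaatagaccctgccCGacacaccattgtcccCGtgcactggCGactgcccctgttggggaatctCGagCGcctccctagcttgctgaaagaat
St6gal1 start 3, chr16:23290220-23290469, plus strand: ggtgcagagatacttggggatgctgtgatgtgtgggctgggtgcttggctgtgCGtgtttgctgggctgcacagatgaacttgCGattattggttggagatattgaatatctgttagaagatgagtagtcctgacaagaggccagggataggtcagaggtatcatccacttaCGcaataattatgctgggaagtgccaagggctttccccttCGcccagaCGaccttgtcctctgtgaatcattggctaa
St3gal5, chr6:72097358-72097607, plus strand: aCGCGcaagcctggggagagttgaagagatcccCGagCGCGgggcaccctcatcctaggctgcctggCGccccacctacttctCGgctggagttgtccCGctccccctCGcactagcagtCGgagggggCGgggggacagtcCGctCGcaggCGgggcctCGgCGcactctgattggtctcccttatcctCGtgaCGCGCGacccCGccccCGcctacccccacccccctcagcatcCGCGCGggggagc
The St3gal5 window held 25 CG pairs, and the St6gal1 windows held 6, 10 and 5, against a median of 6 over 32851 RefSeq promoters. Fewer CG pairs were found in 89.3% of all promoters than before St3gal5 or St3gal4, and in 44.4% to 62.2% than before the St6gal1 starts. The windows of St3gal3, St8sia4 and the second St3gal6 start held 18, 19 and 16, and that of the first St3gal6 start held 1, the fewest of the 9. The 9 windows were searched on both strands for 5 motifs. These were NF-kB (GGG and TTTCC with 2 bases between them, in 1.412% of all promoters), ISRE (GAAA and GAAA with 2 bases between them, 2.977%), AP-1 (TGAGTCA, 4.463%), PPRE (AGGTCA and AGGTCA with 1 base between them, 0.033%) and PU.1 (GAGGAAGT, 2.441%). No motif holds another. The PU.1 letters matched once, 228 to 221 bases before the St3gal3 start, and the others not at all. A missing match says only that these letters are not in these windows.

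St6gal1 (ENSMUSG00000022885, GRCm38 chromosome 16, 23224740 to 23360350, plus strand, 11 exon blocks) had the widest range of the 8. It stood at 51.3, 51.2 and 47.4 CPM in the control vehicle libraries and at 34.1, 51.4 and 54.1 in those labelled knockout. After palmitate plus LPS it stood at 1.105, 1.025 and 1.036 CPM in controls and at 0.5295, 0.976 and 0.946 in libraries labelled knockout. Every stimulated library was below every vehicle library, and in raw counts 939 to 1374 in control vehicle libraries compare with 19 to 21 after stimulation. The log2 difference was -5.56 ± 0.20 (± standard error throughout), or 47.1-fold, in controls and -5.81 ± 0.21, or 56.1-fold, in libraries labelled knockout. Both values lay at the 0.1 percentile of the log2 differences of the 12914 genes tested. In such bulk RNA, fewer cells of a type and less RNA per cell cannot be told apart. With 9 to 21 counts per stimulated library the residual level is imprecise, and the genotypes, which differed there by -0.35 ± 0.33, cannot be resolved at this depth. BC106179, on the other strand, shares 200 exonic bases with St6gal1 and had 26 counts over all 12 libraries.

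B cells also express St6gal1. The 8 B cell markers summed to 42.6 to 52.6 CPM in control vehicle libraries, 34.4 to 35.5 in vehicle libraries labelled knockout, 15.6 to 20.9 in stimulated controls and 12.4 to 16.8 in stimulated libraries labelled knockout. Most of that sum was Ighm, at 42.6 ± 3.93 CPM in control vehicle and 12 ± 1.03 in stimulated control libraries. Cd79a and Ms4a1 were at 1.32 and 0.803 CPM in control vehicle and at 1.71 and 1.28 in stimulated controls, and Pax5 had no counts in the vehicle libraries. Of 5 markers tested, Ighm was lower with stimulation in each genotype and 4 were not called. Of all tested genes 34.7% were lower and 32% higher in controls, and 35.6% and 33.7% in libraries labelled knockout. The part of these markers in the St6gal1 values was not tested.

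Among the N-glycan enzymes of the ST3GAL group, St3gal4 (ENSMUSG00000032038, chromosome 9, 35046579 to 35116810, minus strand) and St3gal3 (ENSMUSG00000028538, chromosome 4, 117932154 to 118134914, minus strand) went opposite ways with stimulation. St3gal4 stood at 55.8, 56.4 and 63 CPM in control vehicle libraries and at 21.9, 22.7 and 20.5 after stimulation. In libraries labelled knockout the values were 72.4, 69.1 and 69 in vehicle and 19.8, 17.8 and 22 after stimulation. The vehicle and stimulated libraries did not overlap, with log2 differences of -1.43 ± 0.09 in controls and -1.82 ± 0.09 in those labelled knockout. St3gal3 stood at 5.98, 6.32 and 7.93 CPM in control vehicle and at 16.6, 19.8 and 17.9 in stimulated control libraries. It went from 4.25, 6.01 and 5.57 to 16.8, 15 and 17.2 in libraries labelled knockout. Again no stimulated library overlapped a vehicle one, and the differences were 1.43 ± 0.14 and 1.62 ± 0.14. St3gal6 (ENSMUSG00000022747, chromosome 16, 58468125 to 58524243, minus strand) had 17 to 37 counts in any library, or 0.859 to 1.94 CPM. It shares 1603 exonic bases with Dcbld2 on the other strand, and without a stated strand setting reads there cannot be assigned, so its values are uncertain.

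The O-glycan enzymes also divided. St3gal1 (ENSMUSG00000013846, chromosome 15, 67102875 to 67113992, minus strand), which caps the core disaccharide of O-glycans, stood at 34.2, 35.9 and 38.5 CPM in control vehicle libraries and at 139, 146 and 149 after stimulation. In libraries labelled knockout it stood at 56, 49.4 and 49 in vehicle and at 251, 241 and 225 after stimulation. No 2 of these 4 groups overlapped, and the groups labelled knockout were the higher under both treatments. The response was 1.998 ± 0.084 in controls and 2.22 ± 0.08 in libraries labelled knockout. St3gal2 (ENSMUSG00000031749, chromosome 8, 110919922 to 110972480, plus strand) lay between 7.83 and 13.7 CPM in all libraries, with responses of -0.37 ± 0.11 and -0.58 ± 0.11.

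St3gal5 (ENSMUSG00000056091, chromosome 6, 72097592 to 72154571, plus strand), the GM3 synthase gene, was the member whose response differed most by labelled genotype. It stood at 14.9, 12.6 and 7.17 CPM in control vehicle libraries and at 14.2, 15.2 and 14.8 after stimulation. The control groups overlapped, and control vehicle replicate 3 was the lowest of all 12. In libraries labelled knockout it stood at 11.5, 11.2 and 14.4 CPM in vehicle and at 54.4, 47.8 and 55.2 after stimulation. Those 3 stimulated libraries were each more than 3-fold above every other library. The response was 0.34 ± 0.19 in controls and 2.09 ± 0.18, or 4.24-fold, in libraries labelled knockout, and the stimulated genotypes differed by 1.83 ± 0.18, or 3.56-fold. The response in controls was 0.56 without control vehicle replicate 1, 0.102 without replicate 3 and -0.002 when libraries were scaled to their totals alone.

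St8sia4 (ENSMUSG00000040710, chromosome 1, 95587682 to 95667571, minus strand), the polysialyltransferase gene, was lower after stimulation, and lower in stimulated libraries labelled knockout than in stimulated controls. It stood at 49.4, 48.1 and 41.5 CPM in control vehicle libraries and at 28.7, 26.3 and 30.3 after stimulation. In libraries labelled knockout it stood at 31.6, 42 and 39.8 in vehicle, with replicate 1 the lowest, and at 15.7, 19.2 and 18 after stimulation. The stimulated groups overlapped neither each other nor the vehicle groups. The response was -0.71 ± 0.12 in controls and -1.10 ± 0.12 in libraries labelled knockout, and the stimulated genotypes differed by -0.69 ± 0.12.

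**Figure D1:**
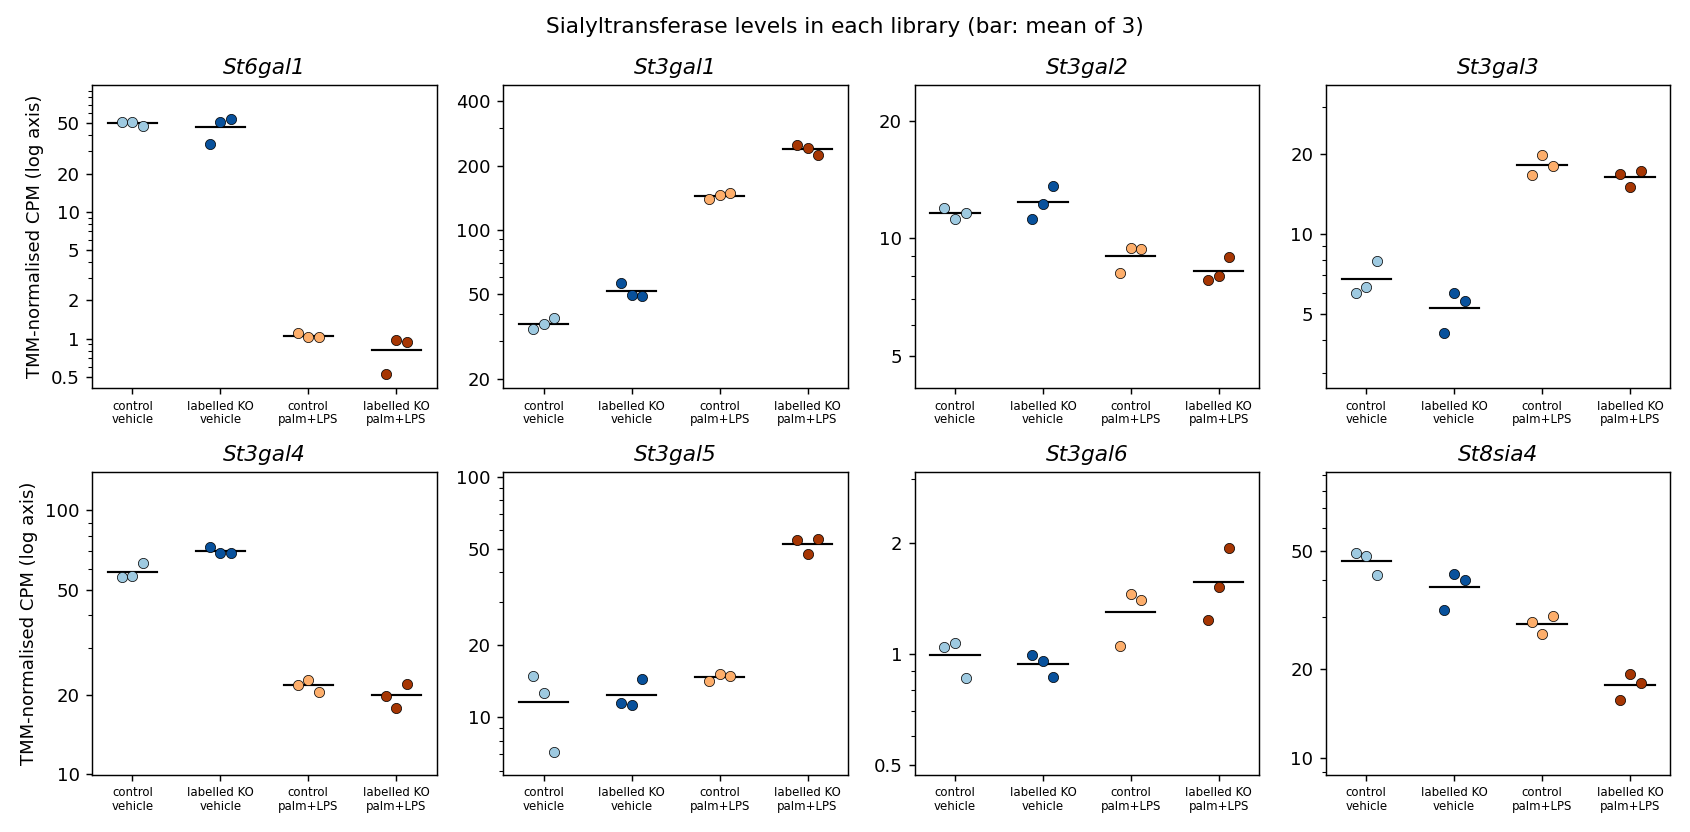
TMM-normalised CPM (log axis) of each sialyltransferase gene in the 4 groups, with a point per library and a bar at the mean of 3. The stimulated St6gal1 points lie between 0.5295 and 1.105 CPM, far under the vehicle points, and the St3gal5 points of stimulated libraries labelled knockout lie between 47.8 and 55.2 CPM, above all others.

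Counted over the set, 6 of 8 members passed the edgeR threshold (adjusted p under 0.05) for the response in controls, where 66.7% of all tested genes did. These were 2 higher and 4 lower, against 32% and 34.7% of all genes. In libraries labelled knockout 8 of 8 passed, where 69.4% of all genes did: 4 were higher and 4 lower, against 33.7% and 35.6%. The 4 higher include St3gal6, at 0.75 ± 0.24, whose values are uncertain given its low counts and the exonic bases shared with Dcbld2. The libraries of the 2 treatments did not overlap for 2 members higher and 4 lower in controls, against 74.8% of all genes in either direction (35.9% higher, 38.9% lower). Between treatments in the libraries labelled knockout they did not for 4 higher and 4 lower, against 70.4% (34.6% higher, 35.8% lower). The member medians were -0.01 and 0.08, beside -0.05 and -0.06 over all genes. Between stimulated genotypes 3 of 8 passed, St3gal1 and St3gal5 higher and St8sia4 lower, where 16.1% of all genes did (10% higher, 6.10% lower). The stimulated genotypes did not overlap for 2 members higher and 2 lower, against 42.2% of all genes (22.4% higher, 19.8% lower). For the difference between the responses 1 of 8 passed, St3gal5, where 8.05% of all genes did (4.70% higher, 3.35% lower), and without vehicle replicate 1 labelled knockout 4 did, with St3gal1, St3gal4 and St8sia4 added, where 13.3% of all genes did. These contrasts chose the set or are built from those that did, so the counts support nothing further.

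**Figure D2:**
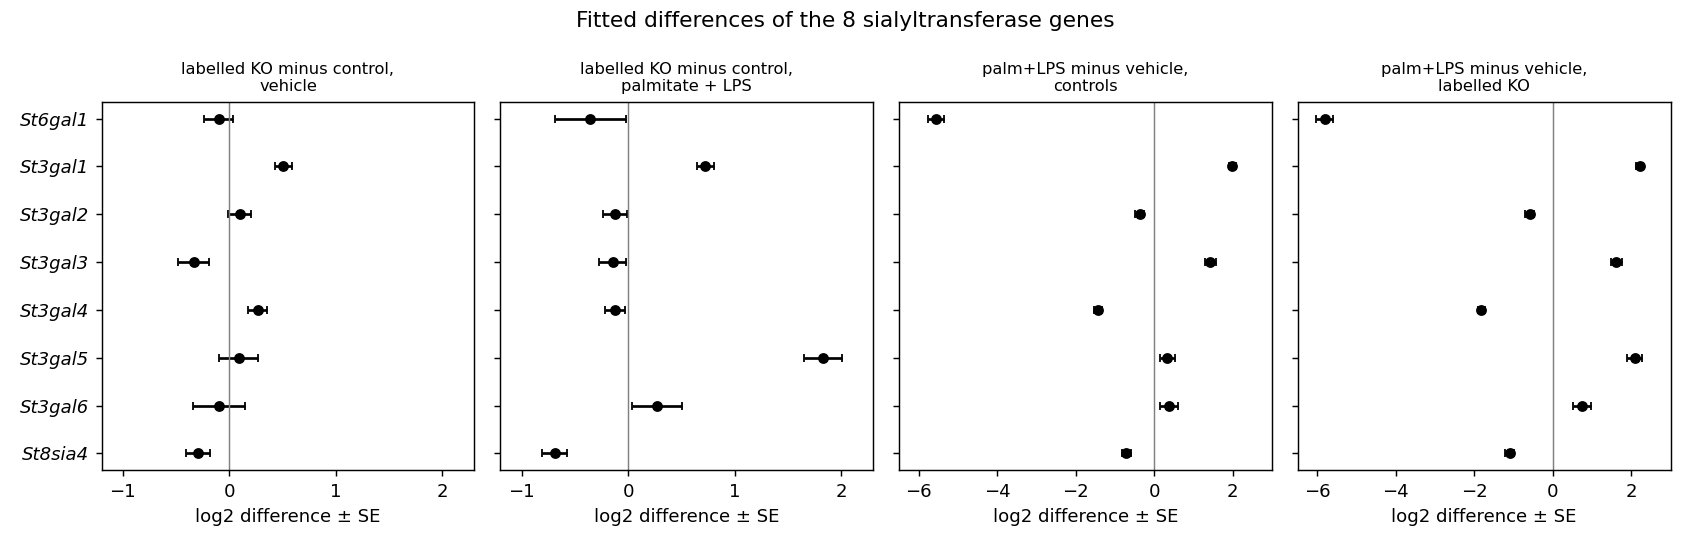
Fitted log2 differences ± standard error of the 8 genes in the 4 comparisons, each point from 3 libraries against 3. The genotype panels span a narrower axis than the treatment panels, in which St6gal1 lies at -5.56 and -5.81.

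The comparison of genotypes in vehicle asks how the labelled genotypes differed without stimulation. St3gal1 was the 1 of 8 members that passed the threshold, where 3.80% of all tested genes did (2.11% higher, 1.69% lower). It was higher in libraries labelled knockout by 0.51 ± 0.08, or 1.42-fold (edgeR quasi-likelihood adjusted p = 0.00167), with all 3 libraries above all 3 controls. Its adjusted p ranged from 4.98e-07 to 0.0404 over 18 other settings. Markers of other cells also differed in vehicle: the 7 neutrophil markers summed to 111 to 114 CPM in libraries labelled knockout against 77.1 to 80.6 in controls, and the 8 fibroblast and mesothelial markers to 150 to 193 against 116 to 135. Of 4 neutrophil markers tested 2 were higher, Mmp8 by 1.42 ± 0.13 (edgeR adjusted p = 9.31e-06) and Cxcr2 by 1.54 ± 0.36 (adjusted p = 0.0246). Cxcr2 was low, at 0.4 CPM in controls and 1.18 in libraries labelled knockout. S100a8 (0.06 ± 0.18, edgeR adjusted p = 0.889) and Csf3r (0.14 ± 0.09, adjusted p = 0.452) did not pass. Ly6g had no counts, S100a9 and Retnlg had at most 2 in a vehicle library, and the 8 fibroblast markers were not called. Of 5 B cell markers tested 1 passed, Ighm at -0.48 ± 0.11 (edgeR adjusted p = 0.0228). Of 8 macrophage markers 1 passed, Mertk at -0.58 ± 0.15 (adjusted p = 0.0374). Of 4 mast cell and eosinophil markers tested 1 passed, Kit at 1.39 ± 0.35 (adjusted p = 0.0358). Kit was low, at 0.45 CPM in controls and 1.17 in libraries labelled knockout. The part of these markers in the St3gal1 difference was not tested. St3gal4 was also higher in 3 of 3 libraries, by 0.27 ± 0.09, and did not pass (edgeR adjusted p = 0.122). The libraries of these 2 genes did not overlap between genotypes, as was the case for 19.8% of all genes (10.5% higher, 9.27% lower). St3gal3 differed by -0.33 ± 0.15 (edgeR adjusted p = 0.273) and St8sia4 by -0.29 ± 0.11 (adjusted p = 0.2), and both groups overlapped. Without replicate 1 labelled knockout these differences were -0.204 and -0.181. St6gal1 (-0.10 ± 0.14), St3gal2 (0.10 ± 0.11), St3gal5 (0.09 ± 0.19) and St3gal6 (-0.10 ± 0.24) had edgeR adjusted p from 0.667 to 0.873. The sign of St6gal1 rested on replicate 1 labelled knockout: without it the difference was 0.077. That of St3gal5 rested on control replicate 3 and on replicate 3 labelled knockout, with -0.151 and -0.04 without them. For St6gal1 and St3gal5 the spread between libraries leaves the direction unsettled.

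Levels were compared between genes as RPKM, the scaled CPM per kilobase of exon, which assumes even coverage along a transcript. St8sia4 was counted over 20091 exonic bases, against 2029 to 6080 for the other members, so its RPKM rank and share rest on that length. In control vehicle libraries it averaged 46.3 CPM, beside 50 for St6gal1. In control vehicle libraries St3gal4 led at 28.8 ± 1.99 RPKM, followed by St6gal1 at 10.2 ± 0.449, St3gal1 at 7.26 ± 0.432 and St3gal5 at 4.41 ± 1.51. St3gal3, St8sia4 and St3gal2 (2.44, 2.31 and 2.3 RPKM) could not be ordered, since neighbours overlapped, and St3gal3 also overlapped St3gal5. St3gal6 was lowest at 0.163. In vehicle libraries labelled knockout St3gal4 again led, at 34.6 ± 0.958, and St3gal1 and St6gal1 overlapped at 10.3 ± 0.791 and 9.46 ± 2.21. After stimulation St3gal1 led in controls at 29 ± 1.03 RPKM, ahead of St3gal4 (10.7), St3gal3 (6.53) and St3gal5 (5.63), none of which overlapped its neighbour, while St6gal1 and St3gal6 overlapped at the bottom at 0.215 and 0.214. In stimulated libraries labelled knockout the order was St3gal1 (47.9 ± 2.65), St3gal5 (20 ± 1.55), St3gal4 (9.8 ± 1.02) and St3gal3 (5.9), with St6gal1 last at 0.166.

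The summed RPKM of the 8 genes was 57.8 ± 0.65 in control vehicle and 55.5 ± 1.79 in stimulated control libraries. It was 65.5 ± 1.72 and 86.6 ± 2.84 in libraries labelled knockout. Within that sum, St3gal4 held 49.8% ± 2.89 in control vehicle and 19.3% ± 1.07 in stimulated control libraries, while St3gal1 went from 12.6% ± 0.638 to 52.3% ± 1.07. St6gal1 held 17.6% ± 0.962 in control vehicle and 0.388% ± 0.0288 after stimulation. St3gal5 held 7.64% ± 2.67, 7.19% ± 0.854 and 10.1% ± 0.0225 in the first 3 groups and 23.1% ± 1.32 in stimulated libraries labelled knockout. The log2 ratio of St6gal1 to the 6 ST3GAL genes together was -2.16 ± 0.105 in control vehicle, -2.55 ± 0.389 in vehicle labelled knockout (-2.995 in replicate 1, -2.343 and -2.3 in the others), -7.97 ± 0.108 in stimulated control and -9.06 ± 0.543 in stimulated libraries labelled knockout. These are shares of transcripts and say nothing of enzyme amount or of the glycans made.

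**Figure D3:**
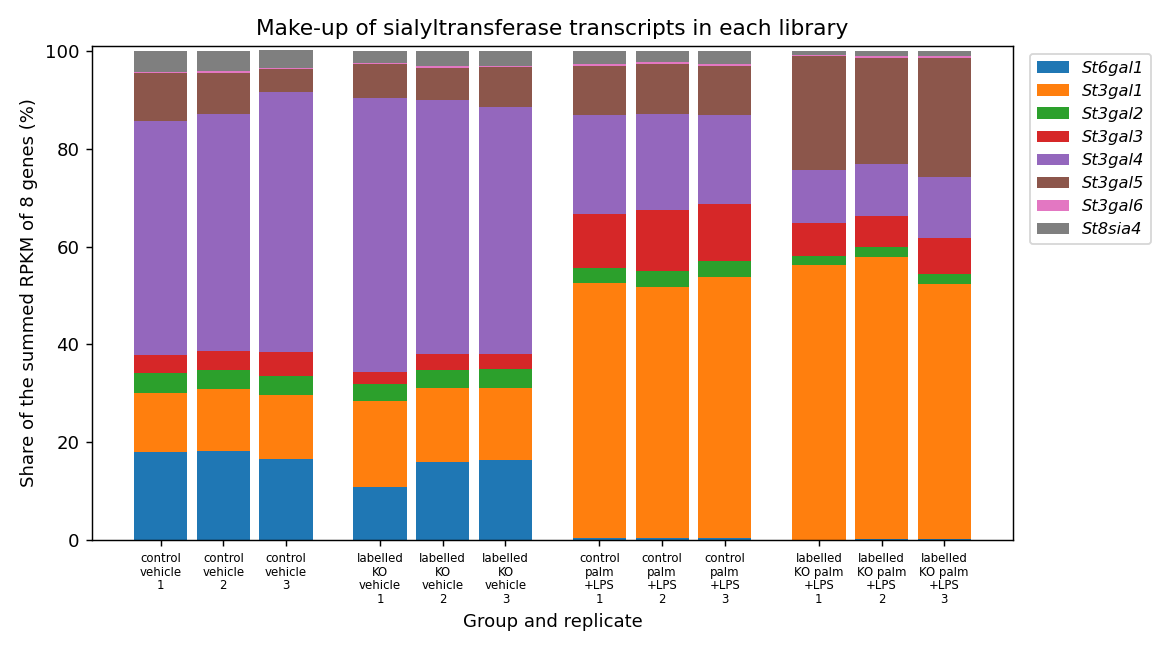
Share (%) of each gene in the summed RPKM of the 8 sialyltransferases, with a bar per library. St3gal4 takes the largest share in the 6 vehicle libraries and St3gal1 in the 6 stimulated ones, and St3gal5 is widest in stimulated libraries labelled knockout at 23.1% on average.

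Of the 12 other sialyltransferase genes, 4 passed the filter on low counts. St6galnac4, which adds sialic acid to already sialylated O-glycans, was the most abundant of them: it rose with stimulation from 215 ± 10.1 to 374 ± 9.77 CPM in controls (0.80 ± 0.07, edgeR adjusted p = 6.19e-08) and from 235 ± 12.1 to 517 ± 15.3 in libraries labelled knockout (1.14 ± 0.07). The stimulated genotypes differed by 0.47 ± 0.07 (edgeR adjusted p = 0.000331). St6galnac6, an enzyme of ganglioside and O-glycan sialylation, fell by 1.70 ± 0.09 in controls and by 1.63 ± 0.09 in libraries labelled knockout. In all 1 rose and 3 fell in controls, where 32% and 34.7% of all genes did, and 1 rose and 2 fell in libraries labelled knockout, where 33.7% and 35.6% did.

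The enzymes that supply the donor sugar fell or did not pass. Of 6 genes 4 were tested: 2 fell in controls and 3 in libraries labelled knockout (34.7% and 35.6% of all genes), and 3 were lower in the stimulated libraries labelled knockout than in stimulated controls, where 6.10% of all genes were. Cmas, which makes CMP-sialic acid, stood at 12.8 ± 0.44 CPM in stimulated controls and at 8.83 ± 0.972 in libraries labelled knockout, a difference of -0.53 ± 0.11 (edgeR adjusted p = 0.00396). Nans, which makes free sialic acid phosphate, differed by -0.40 ± 0.10 (adjusted p = 0.0113, and 0.0528 without stimulated replicate 1 labelled knockout). The kinase and epimerase gene Gne fell by 1.03 ± 0.15 in controls. The list medians were -0.33 and -0.75 for the responses and -0.47 between stimulated genotypes, beside -0.05, -0.06 and -0.01 over all genes.

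Of 7 genes tested of sialic acid removal and turnover, 4 fell and 3 were not called in controls, and 5 fell and 2 were not called in libraries labelled knockout, against 32% of all tested genes rising and 34.7% falling in controls, and 33.7% and 35.6% in libraries labelled knockout. Those that fell include Siae, the sialate esterase (-1.47 ± 0.08 in controls), the lysosomal sialic acid exporter Slc17a5 (-1.06 ± 0.07) and Ctsa, which stabilises the sialidase NEU1 (-0.51 ± 0.08). Neu1, the lysosomal sialidase, stood at 91.7 CPM in control vehicle and 91 CPM in stimulated control libraries.

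Of 7 Siglec genes tested, whose products bind sialic acid, 2 rose and 3 fell in controls, and 3 rose and 2 fell in libraries labelled knockout. That is 5 of 7 called in each, against 66.7% and 69.4% of all genes. Siglec1, the sialoadhesin gene, lay under the 10 CPM of the naming rule and was chosen after its values were seen. It stood at 8.77 ± 1.43 CPM in control vehicle, 3.46 ± 0.575 in vehicle labelled knockout, 6.64 ± 0.469 in stimulated control and 7.57 ± 1.73 in stimulated libraries labelled knockout. It was lower in libraries labelled knockout in vehicle, with a difference of -1.34 ± 0.18 (edgeR adjusted p = 0.000297), and rose with stimulation in libraries labelled knockout (1.11 ± 0.19). Its response in controls was -0.41 ± 0.17 (edgeR adjusted p = 0.0461), a call lost in 10 of 18 other settings with adjusted p up to 0.179. Cd22 stood at 78.7 ± 2.37 CPM in control vehicle and 20.7 ± 0.242 in stimulated control libraries, a fall by 1.93 ± 0.09 (edgeR adjusted p = 1.62e-11). Its response in libraries labelled knockout was -1.81 ± 0.09. Cd33 rose from 14.2 ± 1.1 to 74.7 ± 1.02 CPM in controls (2.40 ± 0.09) and from 11.1 ± 1.27 to 38 ± 1.35 in libraries labelled knockout (1.78 ± 0.10). The stimulated genotypes differed in Cd33 by -0.97 ± 0.09 (edgeR adjusted p = 3.74e-06).

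Among 11 genes tested of the glycolipid steps around GM3, 2 rose and 7 fell in controls, and 3 rose and 6 fell in libraries labelled knockout, where 32% of all genes rose and 34.7% fell in controls and 33.7% and 35.6% in libraries labelled knockout. Ugcg, which makes the glucosylceramide that lactosylceramide is built from, rose by 2.22 ± 0.11 and 2.08 ± 0.11. B4galnt1, which converts GM3 to GM2, fell by 1.81 ± 0.10 and 2.03 ± 0.10. B4galnt1 was also lower in libraries labelled knockout, at 37.6 ± 3.64 against 64.95 ± 0.827 CPM in vehicle (-0.79 ± 0.09, edgeR adjusted p = 7.65e-05) and at 9.2 ± 0.984 against 18.5 ± 1.26 after stimulation (-1.01 ± 0.11, adjusted p = 1.3e-05). B4galt5, a lactosylceramide synthase, was higher by 0.39 ± 0.08 in the stimulated libraries labelled knockout (edgeR adjusted p = 0.00476).

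Of the genes that build the acceptors, the 11 N-glycan genes tested had 6 rise and 4 fall in controls, and 6 rise and 3 fall in libraries labelled knockout. The shares of all genes, for this and the next lists, were 32% rising and 34.7% falling in controls and 33.7% and 35.6% in libraries labelled knockout. Man2a1 and Mgat4a, of N-glycan trimming and branching, rose by 1.72 ± 0.08 and 1.90 ± 0.12 in controls, and Man2a2 fell by 2.91 ± 0.19. Of 10 O-glycan genes 1 rose and 7 fell in each genotype, among them Gcnt1, which branches the core that ST3GAL1 caps and competes with it, from 28.9 ± 1.64 to 2.51 ± 0.263 CPM in controls (-3.52 ± 0.17). Of 5 carriers or candidate carriers of polysialic acid, 2 rose and 2 fell in controls, and 3 rose and 2 fell in libraries labelled knockout. Nrp2, a carrier modified by ST8SIA4 in dendritic cells, rose from 62.2 ± 5.23 to 389 ± 21.6 CPM in controls (2.64 ± 0.09). Of 7 selectin and ligand genes 1 rose and 4 fell in controls, and 2 rose and 4 fell in libraries labelled knockout, with Cd44 at 1.39 ± 0.07 and Selplg at -0.95 ± 0.10 in controls. Of 4 proteases that include those known to release sialyltransferases from the Golgi, Bace1, which cleaves ST6GAL1, fell by 0.61 ± 0.12 in controls, and Sppl2a, a related intramembrane protease gene, rose by 1.79 ± 0.08.

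**Figure D4:**
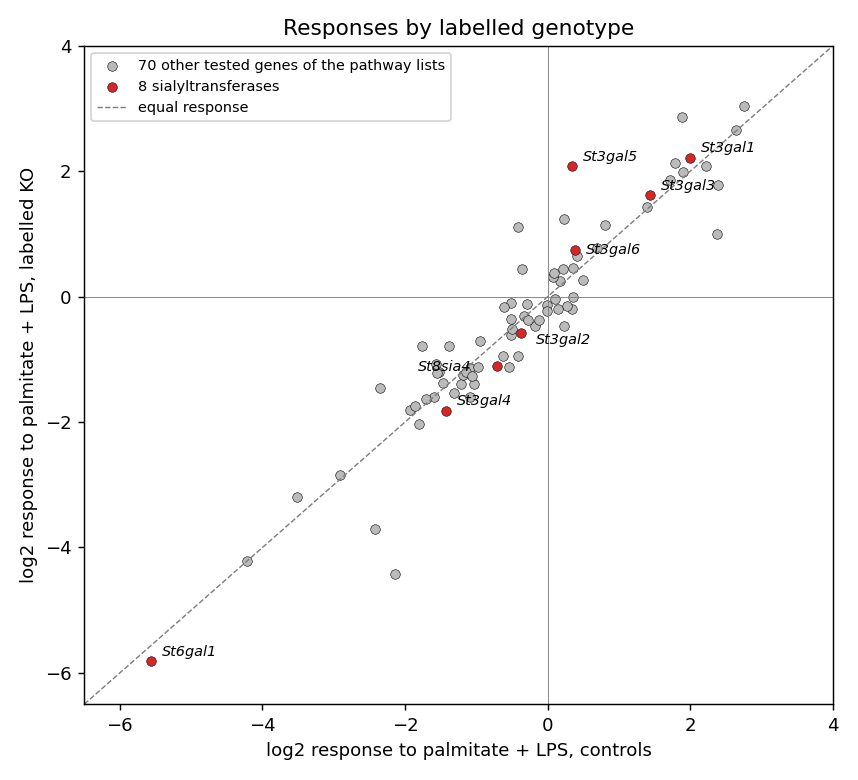
Log2 response to palmitate plus LPS in controls (horizontal) and in libraries labelled knockout (vertical) for the 8 sialyltransferase genes (red) and 70 other tested genes of the pathway lists (grey). St3gal5 lies above the dashed line of equal response, at 0.34 and 2.09, farther from it than the other members.

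Markers of other cells moved with the stimulated genotypes in which St3gal5 and St3gal1 were higher and St8sia4 lower. The 8 fibroblast and mesothelial markers summed to 183 to 332 CPM in stimulated libraries labelled knockout, with 332 in replicate 1. They summed to 124 to 143 in stimulated controls, and 6 of 8 were higher. Of all tested genes 10% were higher and 6.10% lower, for this and the next marker lists. The 7 neutrophil markers summed to 143 to 173 against 106 to 115 CPM, with 2 of 4 tested markers higher and 1 lower. Csf3r, the largest part, averaged 136.5 against 90.6 CPM. The lower marker was S100a8, at 6.93 against 15 CPM, a difference of -1.11 ± 0.17. Ly6g and S100a9 were at 0 in all libraries of both groups. The 8 macrophage markers summed to 6090 to 6330 against 5150 to 5730 CPM, with 3 of 8 higher and 1 lower. T and NK cell markers summed to under 1 CPM and dendritic cell markers to 7.45 to 9.27 in those libraries. The part of these markers in the sialyltransferase values was not tested. Stimulated replicate 1 labelled knockout held the highest fibroblast sum. Without it the genotype difference was 1.80 for St3gal5, 0.69 for St3gal1 and -0.61 for St8sia4. Replicates 2 and 3, at 183 and 232 CPM, still lay above the 124 to 143 of stimulated controls. Leaving out replicate 1 therefore does not remove the difference in these markers.

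Among the genes whose pattern over the 12 libraries was most like that of St6gal1 were Fam198b, Dglucy and Nav1, each with Pearson r = 0.998 of log2 CPM among 11578 genes compared. Since the libraries share the treatment split, 2130 genes reached an r of 0.9 with St6gal1. For St3gal5 the most alike were Pla2g4c (r = 0.979), Gypc (0.973), Slc25a12 (0.957) and Inpp1 (0.956), and 78 genes reached 0.9. Pla2g4c was near the floor, averaging 0.155 CPM in control vehicle, 0.264 in stimulated control and 1.19 in stimulated libraries labelled knockout. Gypc, a red cell membrane glycophorin gene, stood at 20.8, 22.5, 27.4 and 52.4 CPM on average in control vehicle, labelled knockout vehicle, stimulated control and stimulated labelled knockout libraries.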

How the data were processed

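RNA was sequenced from 12 libraries (SMARTer v1 kit, per the labels' protocols), 3 in each of 4 groups set by title. Tools named by the submitters' processing notes are STAR 2.0.4b, featureCounts 1.45 and bcl2fastq 2.0, with build GRCm38; the strand setting was not given in the sources used here. The deposited tables hold raw counts per gene, the authors' CPM (count relative to the library total) and the authors' RPKM (that CPM per kilobase of exon), and both recomputed from the counts to rounding error. Of 41388 gene IDs, 40254 had a symbol.

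The deposited counts were filtered with filterByExpr by group (12914 genes, at least 99.918% of each library's counts), scaled by TMM and tested with edgeR 4.0.16 (quasi-likelihood, robust) in R 4.3.3, with 1 mean per group over all 12 libraries. Standard errors are the log2 difference over the root of F. Benjamini-Hochberg adjustment covered every tested gene, threshold 0.05. The labels do not say that libraries came from separate animals, so p-values measure the spread between these libraries, which may be technical. The procedure was tested on simulated counts.

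The members and all lists were chosen with earlier results of these data known. Named were the 8 members, Pparg, and per list and comparison up to 3 genes past the threshold with the smallest p and 10 CPM in the higher group; other values given describe a list. Genes alike in pattern are the 4 with the highest r (prior count 2), without predicted genes; some items that these rules name are not reported here. Alternatives were other scaling, no filter, DESeq2 1.42.0, 2 groups alone, a replicate block and leaving out each library. Promoter sequences are from RefSeq.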

Additional observations from a re-analysis of the deposited data

Results flagged for a closer look

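The response to palmitate plus LPS differed between the labelled genotypes for St3gal5 by 1.75 ± 0.26 on the log2 scale, labelled knockout minus control. This value is built from the contrast that chose the gene and is given without a p.

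The difference between the responses also passed the edgeR threshold for 6 of 70 other tested genes of the pathway lists, or 8.57%, where 8.05% of all genes did. It was largest for Siglec1, at 1.524 ± 0.253 (edgeR adjusted p = 0.00257), a gene under the 10 CPM of the naming rule that was chosen after its values were seen. It was -0.61 ± 0.13 for the Siglec gene Cd33 (adjusted p = 0.0121), 0.8 ± 0.18 for the core fucosyltransferase gene Fut8 (adjusted p = 0.0133) and -0.59 ± 0.15 for Cmas (edgeR adjusted p = 0.025). It was 0.42 ± 0.12 for B4galt5 (edgeR adjusted p = 0.0402) and 0.59 ± 0.17 for the O-glycan initiating gene Galnt7 (adjusted p = 0.0422). The calls of Cmas, B4galt5 and Galnt7 were lost in 8, 11 and 11 of 17 other settings, with adjusted p up to 0.0768, 0.108 and 0.116. Those of Siglec1, Cd33 and Fut8 were kept in all 17.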

How the results depend on the processing

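Over 18 other settings (17 for the difference between responses), St3gal1 in vehicle kept its direction and its call. Leaving out 1 library, the members called of 8 ranged from 1 to 1 in vehicle, 3 to 3 between stimulated genotypes, 5 to 7 for the response in controls, 7 to 8 for that in libraries labelled knockout and 1 to 4 for the difference between responses. The last was 2 with library totals and 2 with DESeq2 (St3gal4 in both), and 4 without vehicle replicate 1 labelled knockout; the cause was not tested. In these counts St3gal2 dropped out in controls without stimulated control replicate 1. St3gal6 dropped out in libraries labelled knockout with library totals and without stimulated replicate 3. St3gal5 entered the count in controls with no filter (response 0.311) and without control vehicle replicate 1 (0.56). The treatment contrasts chose the set, so these changes describe the member counts and are no test of a member. In vehicle, St6gal1 ranged from -0.223 to 0.077 (without replicate 1 labelled knockout) and St3gal5 from -0.151 (without control replicate 3) to 0.306, with -0.04 without replicate 3 labelled knockout. Library totals moved the median response of all genes from -0.048 to -0.38 in controls and from -0.056 to -0.424 in libraries labelled knockout, and with it every member's response; the calls over all genes went from 4132 higher and 4480 lower to 2644 and 6416 in controls, from 4356 and 4600 to 2676 and 6570 in libraries labelled knockout, from 1293 and 788 to 841 and 1578 between stimulated genotypes, and from 607 and 432 to 388 and 788 for the difference between responses. Deviations from the group mean correlated from -0.669 to 0.289 between same-numbered libraries (median -0.116). Between differently numbered libraries they correlated from -0.53 to 0.665 (median 0.026). With 3 libraries per group these values cannot settle whether replicate numbers paired the libraries. With a replicate block, 1, 3, 6, 8 and 1 members were called in the 5 comparisons, as without it, and over all genes 514 against 1039 for the difference between responses. Calls over all genes in vehicle were 491, 960 without the filter, 229 with 2 groups alone and 261 to 789 leaving out 1 library. Between stimulated genotypes they were 2081, 3811 with 2 groups alone and 1227 to 4080, and for the difference between responses 1039, 1875 without the filter and 428 to 1962. Depth limits St6gal1 after stimulation and St3gal6.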
